A study of Homo sapiens with 2 samples.

Results

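The 10 genes of the HIF1A axis followed here are the oxygen-regulated transcription factor subunit HIF1A, the glucose transporter SLC2A1, the glycolytic genes PFKFB4, ALDOC, PGK1 and LDHA, the pyruvate dehydrogenase kinases PDK1 and PDK4, the peptide hormone gene ADM and the mitophagy receptor gene BNIP3L. They are 10 of the 836 loci of the deposited table and were picked by name, with their values in these libraries already known. RNA came from the established pancreatic cancer cell line MiaPaCa, in 1 library of cells with a scrambled-hairpin plasmid (Scr) and 1 library of cells with a hairpin plasmid against the transcription factor MYB (shMyb). Both were pooled populations kept under puromycin, per the labels' protocols, and carry the same plasmid backbone, pGFP-V-RS. The genotype label of Scr reads MYB-overexpression and that of shMyb reads MYB-silenced, while the protocols name only the hairpin and scrambled plasmids. MYB stood at 981 FPKM in Scr and 0.554 FPKM in shMyb, the direction its labels give. It ranked 1 of the 836 listed loci by level in Scr, and its FPKM values differed 1772-fold. There is no library without a plasmid, so raised MYB in Scr and silenced MYB in shMyb cannot be told apart. The same holds for every difference between the libraries given below.

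HIF-1 is a dimer of an alpha subunit, which is degraded when oxygen is plentiful, and a constant beta subunit. It binds short DNA elements with the core ACGTG and is known for switching on glucose uptake, glycolysis and lactate production. Pyruvate, the end product of glycolysis, is either reduced to lactate by lactate dehydrogenase or enters mitochondria, where pyruvate dehydrogenase turns it into acetyl-CoA. The PDK kinases phosphorylate and switch off pyruvate dehydrogenase, and so set which of these fates pyruvate takes. Pancreatic cancers are often poorly perfused, and their reliance on glycolysis is well known.

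Of the 10 genes, 9 were lower and 1 was higher in shMyb, while of the 797 listed loci that averaged 1 FPKM or more 62.4% were lower and 37.6% higher. HIF1A stood at 22.4% and LDHA at 24.2% of their Scr level, and the other lower genes at between 19.8% (ADM) and 53.4% (PGK1). PDK4 was 8.89-fold higher. FPKM, the unit of all levels here, scales fragments to transcript length and library size, so levels of different genes can be set side by side. Differences are given as log2 ratios of shMyb over Scr after adding 0.5 FPKM to each value, which understates those of weakly expressed genes. A 2-fold difference is an absolute log2 ratio of at least 1.

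With 1 library in each group there is no spread between replicates, and no test was run. No locus in the table has a p-value above 0.04995, so a gene outside it was not analysed here, and nothing is said of its level. All 10 genes averaged 1 FPKM or more. Of them, 7 were lower by at least 2-fold, against 24.7% of the 797 loci, and 1 was higher by at least 2-fold, against 19.9%. PGK1 and BNIP3L lay under 2-fold. The members were chosen from this same contrast, so these counts are a description. Their median log2 ratio was -1.32, against -0.80 for all 836 listed loci. With ratios centred on the median of the listed loci, the same 9 stayed below 0, but only HIF1A and LDHA were lower by at least 2-fold. PGK1 (-0.10) and BNIP3L (-0.13) lay close to 0. The 0.5 FPKM added bears on this call for ADM, which was at -0.81 when centred. Its FPKM values alone differ 5.06-fold, against 4.46-fold for HIF1A and 4.13-fold for LDHA. These are bulk libraries, in which fewer cells of a type and less RNA per cell cannot be told apart. None of the 16 epithelial, leukocyte, endothelial, fibroblast and acinar marker genes looked for was listed, so the labelled cell type could not be checked. Muscle and keratin genes outside that list were listed, and are named after their values were seen. The muscle genes DES (1.97 FPKM in Scr and 0.0780 FPKM in shMyb), MYH7 (1.84 and 0.118 FPKM), MB (3.05 and 0.736 FPKM) and MYPN (5.24 and 1.90 FPKM) were lower, and MYL3 (1.05 FPKM in Scr) was listed at 0 in shMyb. The epithelial keratins KRT13 (6.06 and 2.95 FPKM), KRT16 (2.85 and 0.239 FPKM) and KRT80 (9.94 and 5.37 FPKM) were lower too. The part of such genes in the members' differences was not tested.

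**Figure D1:**
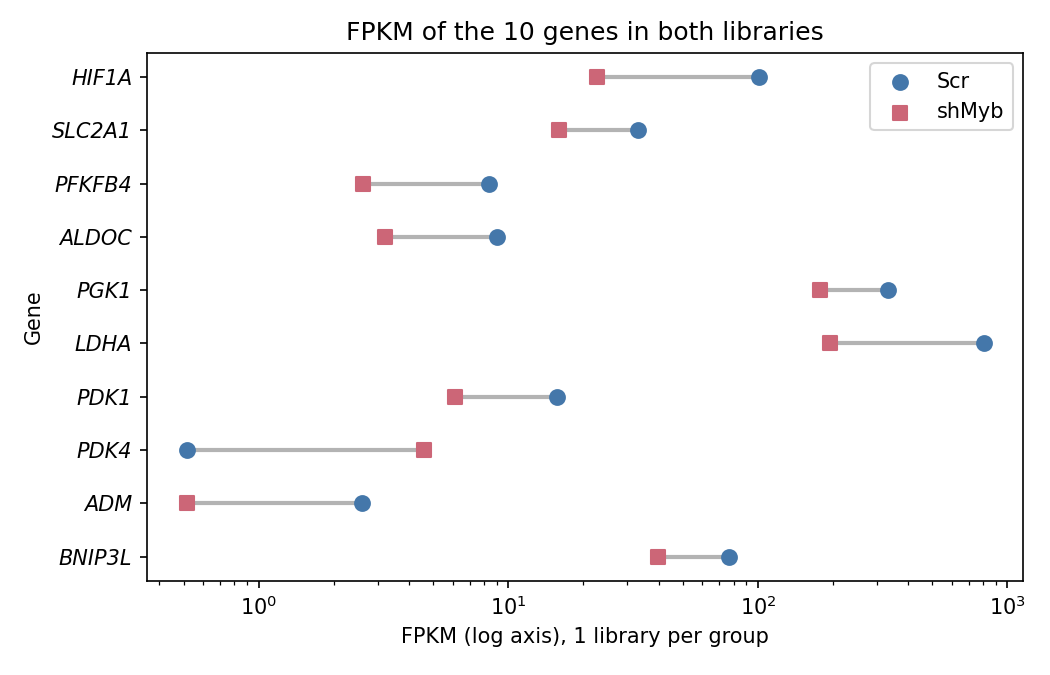
FPKM of each of the 10 genes (log axis) in the Scr library (circles) and the shMyb library (squares), 1 library a group, ordered from the regulator through glycolysis to pyruvate fate and other hypoxia-inducible genes. LDHA spans 802 to 194 FPKM, and PDK4 alone has its shMyb value to the right of its Scr value.

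Promoter windows show what sequence accompanies these levels. RefSeq windows on GRCh38.p14, from 250 bases before to 50 bases after the gene's start, were at hand for 9 of the 10 genes, all but BNIP3L. The core ACGTG, read on either strand, lay in 3 of the 9 windows (33.3%), those of LDHA, ALDOC and PGK1, and in 21.6% of all 27305 windows of the same length. The core itself holds a CG dinucleotide. It lay in 28.0% of the 603 windows of listed genes. Among the 15592 windows within the range of CG dinucleotides of the 9 (6 to 38), 27.0% held it. PDK1 alone sets the lower end of that range, and the next lowest window, that of ADM, held 16. The range is therefore wide and not a close match. The windows of LDHA, ALDOC and PGK1 each held more than 1 stretch of the core. They are printed 5′ to 3′ on the gene's strand because they are the windows with matches, and capitals mark the core, which reads CACGT where it lies on the other strand. Where both readings overlap, the capitals read CACGTG, which is also the E-box element of MYC-type factors.
LDHA: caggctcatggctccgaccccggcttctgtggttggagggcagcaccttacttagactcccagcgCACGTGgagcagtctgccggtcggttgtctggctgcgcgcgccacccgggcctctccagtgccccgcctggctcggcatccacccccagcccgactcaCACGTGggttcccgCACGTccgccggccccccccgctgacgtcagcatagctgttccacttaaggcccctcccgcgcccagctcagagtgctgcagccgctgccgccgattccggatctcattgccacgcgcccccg
PGK1: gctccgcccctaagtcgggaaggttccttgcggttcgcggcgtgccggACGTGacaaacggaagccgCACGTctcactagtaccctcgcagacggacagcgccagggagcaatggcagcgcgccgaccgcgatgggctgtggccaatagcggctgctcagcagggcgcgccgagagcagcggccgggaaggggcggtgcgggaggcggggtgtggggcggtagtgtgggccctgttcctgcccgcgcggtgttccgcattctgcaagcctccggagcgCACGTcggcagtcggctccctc
ALDOC: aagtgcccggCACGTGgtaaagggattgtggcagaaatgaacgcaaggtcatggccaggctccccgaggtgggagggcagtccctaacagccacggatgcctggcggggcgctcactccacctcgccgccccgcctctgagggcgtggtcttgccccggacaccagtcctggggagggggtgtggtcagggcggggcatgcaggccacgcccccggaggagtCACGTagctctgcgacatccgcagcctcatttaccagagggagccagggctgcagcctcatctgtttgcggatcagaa
The LDHA window (chr11:18394313-18394612, plus strand) has overlapping readings that begin 185 and 87 bases before the start and a further CACGT 73 bases before it. The PGK1 window (chrX:78103998-78104297, plus strand) has the core 202 bases before the start, its reverse 183 bases before, and another reverse 29 bases after the start. The ALDOC window (chr17:28576846-28577145, minus strand) has overlapping readings that begin 240 bases before the start and a CACGT 28 bases before it.

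The kinases PDK1 and PDK4 differed in direction, and their windows are printed for comparison. In PDK1, capitals mark CAACTG, 12 bases before the start, which is 1 of 4 spellings of a MYB element searched on both strands (CAACTG or CAACGG, else TAACTG or TAACGG, none of which overlaps ACGTG here). That search was added after the data were seen. PDK4 has neither motif in this window.
PDK1: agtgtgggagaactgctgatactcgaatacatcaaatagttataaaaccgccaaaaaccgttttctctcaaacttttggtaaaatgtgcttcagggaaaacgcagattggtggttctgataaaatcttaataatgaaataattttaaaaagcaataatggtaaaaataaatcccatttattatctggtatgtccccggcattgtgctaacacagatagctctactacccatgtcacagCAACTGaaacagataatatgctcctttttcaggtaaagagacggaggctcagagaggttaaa
PDK4: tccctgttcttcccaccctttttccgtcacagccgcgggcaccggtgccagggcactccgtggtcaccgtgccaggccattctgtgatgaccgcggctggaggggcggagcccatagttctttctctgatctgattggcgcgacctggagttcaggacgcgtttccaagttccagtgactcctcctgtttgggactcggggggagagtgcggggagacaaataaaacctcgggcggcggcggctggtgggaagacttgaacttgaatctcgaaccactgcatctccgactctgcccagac
The PDK1 window (chr2:172555123-172555422, plus strand) has a GC content of 36.3% and 6 CG dinucleotides, the lowest of the 9. Only 1 of 9 GENCODE transcripts of PDK1 begins in it, so the window is not where most of them start. The same limit holds for the PGK1 window, in which 1 of 6 transcripts begins. The PDK4 window (chr7:95596467-95596766, minus strand) has a GC content of 60.7% and 21 CG dinucleotides, and 1 of 5 transcripts begins in it. A match is a run of letters and not a measured binding site. A MYB element was found in 1 of the 9 windows (11.1%), against 25.9% of all windows.

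The regulator HIF1A (chromosome 14, 62162119 to 62215807, hg19) stood at 101 FPKM in Scr and 22.6 FPKM in shMyb. It ranked 63 of the 836 listed loci by level in Scr and 243 in shMyb. Its log2 ratio of -2.13 ranked 4 from the bottom among the 801 loci above 0 in both libraries. That rank depends on the 0.5 FPKM added. In the authors' log2 ratios, which add none, weakly expressed loci such as DES (-4.66) and ADM (-2.34) lie below HIF1A (-2.16). The authors' deposited table gives it a p-value of 5e-05. HIF1A-AS2, an antisense transcript at the end of the gene, was listed with the same start and end as HIF1A, at 62.8 and 15.2 FPKM (log2 ratio -2.01). In RefSeq 1220 of the 2051 bases of its span lie within HIF1A. No source used here says whether reads were counted by strand, so the share of each gene in these values cannot be told apart.

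EPAS1, which encodes the HIF-2 alpha subunit, was the only other HIF subunit of 5 that was listed, and it was higher. It stood at 1.22 FPKM in Scr and 2.94 FPKM in shMyb, 2.41-fold higher. The level of HIF1A was 82.9 times that of EPAS1 in Scr and 7.71 times in shMyb. The sum of both was 102 FPKM in Scr and 25.6 FPKM in shMyb, and EPAS1 made up 1.19% and 11.5% of it. None of the 11 genes for HIF hydroxylases, the VHL ubiquitin ligase and the coactivators was listed.

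Glucose entry is represented by SLC2A1 (chromosome 1, 43391046 to 43449029), the widely expressed transporter also called GLUT1. It stood at 33.0 FPKM in Scr and 16.0 FPKM in shMyb, a log2 ratio of -1.02 that lies just past 2-fold. With 1 FPKM added in place of 0.5 it was -0.997, which ends that call and leaves 6 genes lower by at least 2-fold. No other of the 4 facilitative transporters looked for was listed. The next step, phosphorylation by hexokinase, was covered by HK2, at 19.6 and 11.3 FPKM (log2 ratio -0.77), and by HKDC1, at 7.69 and 3.64 FPKM (log2 ratio -0.98). Both were lower. HK2 lay under 2-fold, and HKDC1 did so only with 0.5 FPKM added, since its FPKM values alone differ 2.11-fold.

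PFKFB4 (chromosome 3, 48555117 to 48594227) encodes a bifunctional enzyme that makes and removes fructose 2,6-bisphosphate, the main activator of phosphofructokinase. It stood at 8.35 FPKM in Scr and 2.61 FPKM in shMyb (log2 ratio -1.51), with a p-value of 0.00035 in the authors' deposited table. It was the only listed member of the 4 PFKFB genes. ALDOC (chromosome 17, 26900133 to 26903951), the brain-type aldolase isoform, stood at 8.97 and 3.21 FPKM (log2 ratio -1.35). Both genes were weakly expressed beside PGK1 and LDHA, and their shMyb levels were 31.3% and 35.7% of Scr.

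PGK1 (chromosome X, 77359666 to 77382324) makes ATP in lower glycolysis and stood at 332 FPKM in Scr and 178 FPKM in shMyb. Its log2 ratio of -0.90 was the smallest in size among the 10 genes, although its difference in level, -155 FPKM, was exceeded only by that of LDHA, -608 FPKM. LDHA (chromosome 11, 18415936 to 18429765), which turns pyruvate into lactate, stood at 802 FPKM in Scr and 194 FPKM in shMyb (log2 ratio -2.04). LDHA ranked 2 of all listed loci in Scr and 19 in shMyb, and PGK1 ranked 8 and 23. LDHA was 2.41 times as high as PGK1 in Scr and 1.09 times as high in shMyb, so both ended at close levels. GENCODE names 6 pseudogenes after LDHA, 1 after PGK1 and 1 after HIF1A. No source used here says how shared reads were assigned, so the levels of these genes are uncertain by that share.

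Of the 25 glycolytic enzyme genes from hexokinase to pyruvate kinase, 4 were listed and all 4 were lower (HK2, HKDC1, ALDOC and PGK1), with a median log2 ratio of -0.94. Among listed loci 62.4% were lower, with a median of -0.80, and ALDOC and PGK1 were picked with their values known. With LDHA, these 5 enzymes of the route from glucose to lactate summed to 1170.4 FPKM in Scr and 390 FPKM in shMyb. LDHA alone made up 68.5% of the sum in Scr and 49.8% in shMyb, and 77.9% of the difference between the sums. The listed steps are therefore glucose entry, hexokinase, the control of phosphofructokinase, aldolase, phosphoglycerate kinase and lactate dehydrogenase. Phosphoglucose isomerase, phosphofructokinase itself, triosephosphate isomerase, glyceraldehyde phosphate dehydrogenase, phosphoglycerate mutase, enolase and pyruvate kinase had no listed gene. LDHA was the only listed gene of 11 lactate dehydrogenases and lactate carriers.

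**Figure D2:**
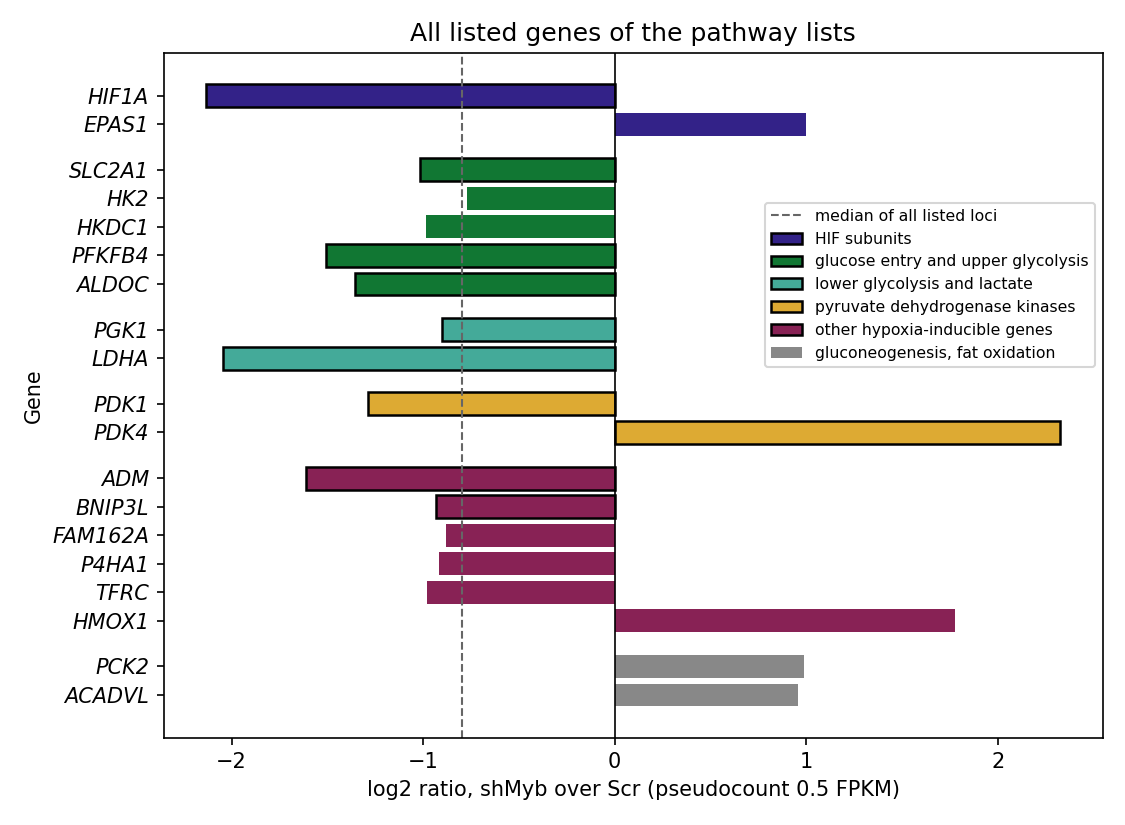
Log2 ratio of shMyb over Scr (horizontal axis) for the listed genes of the pathway lists in 6 groups, with black outlines on the 10 genes followed here and a dashed line at the median of all listed loci, -0.80. HIF1A and LDHA reach furthest to the left, and EPAS1, PDK4, HMOX1, PCK2 and ACADVL lie to the right of 0.

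At the branch point of pyruvate, 2 of the 4 pyruvate dehydrogenase kinase genes were listed, in opposite directions. PDK1 (chromosome 2, 173420779 to 173463862), a classical HIF-1 target, stood at 15.7 FPKM in Scr and 6.14 FPKM in shMyb (log2 ratio -1.29). PDK4 (chromosome 7, 95212809 to 95225925), the isoform induced by fasting and fatty acids through PPAR and FOXO factors, stood at 0.516 and 4.59 FPKM (log2 ratio 2.32). The authors' deposited table gives p-values of 0.00135 for PDK1 and 0.0004 for PDK4. The log2 ratio of PDK4 ranked 3 from the top among the 801 loci above 0 in both libraries, and the log2 ratios of the kinases differed by 3.61.

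In level, PDK1 was 30.5 times PDK4 in Scr and 1.34 times PDK4 in shMyb. The sum of both was 16.2 FPKM in Scr and 10.7 FPKM in shMyb, 66.0% of the Scr sum. PDK4 made up 3.18% of that sum in Scr and 42.8% in shMyb. The difference in level was -9.59 FPKM for PDK1 and 4.07 FPKM for PDK4. PDK4 lay under 1 FPKM in Scr, so the size of its ratio depends on the pseudocount (2.93 with 0.1 FPKM). PDK2 and PDK3 were not listed, so the total of the 4 kinases is not known.

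**Figure D3:**
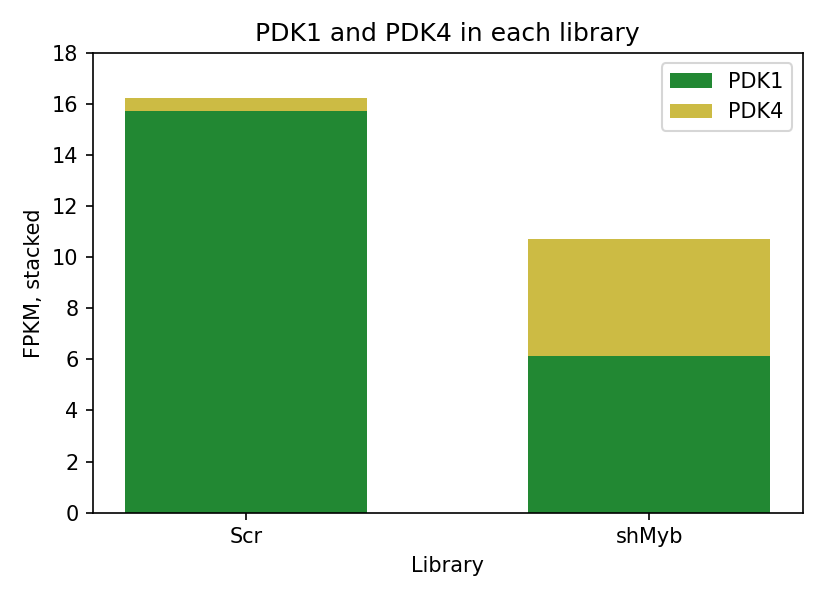
Stacked FPKM of PDK1 and PDK4 in the Scr and shMyb libraries (vertical axis from 0, 1 library a group). The stack is 16.2 FPKM high in Scr, nearly all PDK1, and 10.7 FPKM high in shMyb, of which PDK4 is 42.8%.

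The enzymes on which these kinases act were not listed. None of the 14 genes for pyruvate dehydrogenase subunits, their phosphatases, the mitochondrial pyruvate carrier, pyruvate carboxylase and alanine transaminases was in the table, and neither was any of 20 tricarboxylic acid cycle or 8 pentose phosphate genes. Of 6 gluconeogenic genes, mitochondrial phosphoenolpyruvate carboxykinase PCK2 was listed, at 30.7 FPKM in Scr and 61.4 FPKM in shMyb (log2 ratio 0.99). Of 16 genes of PPAR and FOXO factors, their partners and fatty acid oxidation, processes in which PDK4 is known, ACADVL was listed. This very-long-chain acyl-CoA dehydrogenase stood at 123 and 240.4 FPKM (log2 ratio 0.96).

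Outside metabolism, ADM (chromosome 11, 10326642 to 10328923), the precursor of the vasodilator peptide adrenomedullin, stood at 2.61 FPKM in Scr and 0.515 FPKM in shMyb. Its log2 ratio was -1.61 here and -2.34 in the authors' deposited table, which adds no pseudocount, and the p-value there, 0.027, was the largest of the 10 genes. None of 6 genes for its receptors and its relative ADM2 was listed. BNIP3L (chromosome 8, 26240523 to 26270644), a receptor that directs mitochondria to autophagy, stood at 76.6 and 39.9 FPKM (log2 ratio -0.93). It was the only listed gene of 11 mitophagy receptors and adaptors. Genes on the opposite strand share exon bases with BNIP3L too (7.66% of its bases with PNMA2), as with ALDOC (10.1%), PDK1 (2.99%) and SLC2A1 (2.71%) in GENCODE, so without strand their reads cannot be told apart there.

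Of 30 hypoxia-inducible genes outside glycolysis, 6 were listed, of which 5 were lower and 1 was higher, and their median log2 ratio was -0.93, against 62.4% lower and a median of -0.80 among listed loci. ADM and BNIP3L among them were picked with their values known. Besides ADM and BNIP3L, the lower ones were FAM162A, a mitochondrial protein linked to cell death (63.2 and 34.1 FPKM, log2 ratio -0.88), the collagen prolyl hydroxylase subunit P4HA1 (42.2 and 22.1 FPKM, -0.92) and the transferrin receptor TFRC (178 and 90.1 FPKM, -0.98). All 3 lay under 2-fold. Haem oxygenase HMOX1, which is induced by oxidative stress as well as by hypoxia, was higher, at 21.1 and 73.4 FPKM (log2 ratio 1.78). Over all 15 pathway lists, 19 of 173 genes were listed. Of the 9 that are not among the 10 genes, 5 were lower and 4 higher, beside 62.4% lower among listed loci. The lists were chosen with earlier results of these data known, and this split depends on which genes are on them.

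GC content of transcripts moved with direction in the whole table, and its part in these results was not tested. Lower loci had a median transcript GC content of 44.6% and higher loci of 60.4%. With the loci split into 5 bins of rising GC content, 145 of 157 were lower in the lowest bin and 18 of 157 in the highest. HIF1A (39.2%) and PDK4 (39.2%) both lie in the lowest bin, where PDK4 was 1 of only 12 higher loci. LDHA (45.4%), PGK1 (43.3%), PDK1 (43.1%) and BNIP3L (45.6%) lie in the next bin, where 136 of 156 loci were lower. PFKFB4 (56.6%), ALDOC (55.5%), SLC2A1 (56.6%) and ADM (59.4%) lie in the bin below the highest, where 78 loci were lower and 78 higher. Less the median log2 ratio of its own bin, HIF1A was at -1.22 and LDHA at -1.18, while PGK1 was at -0.037 and BNIP3L at -0.068.

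**Figure D4:**
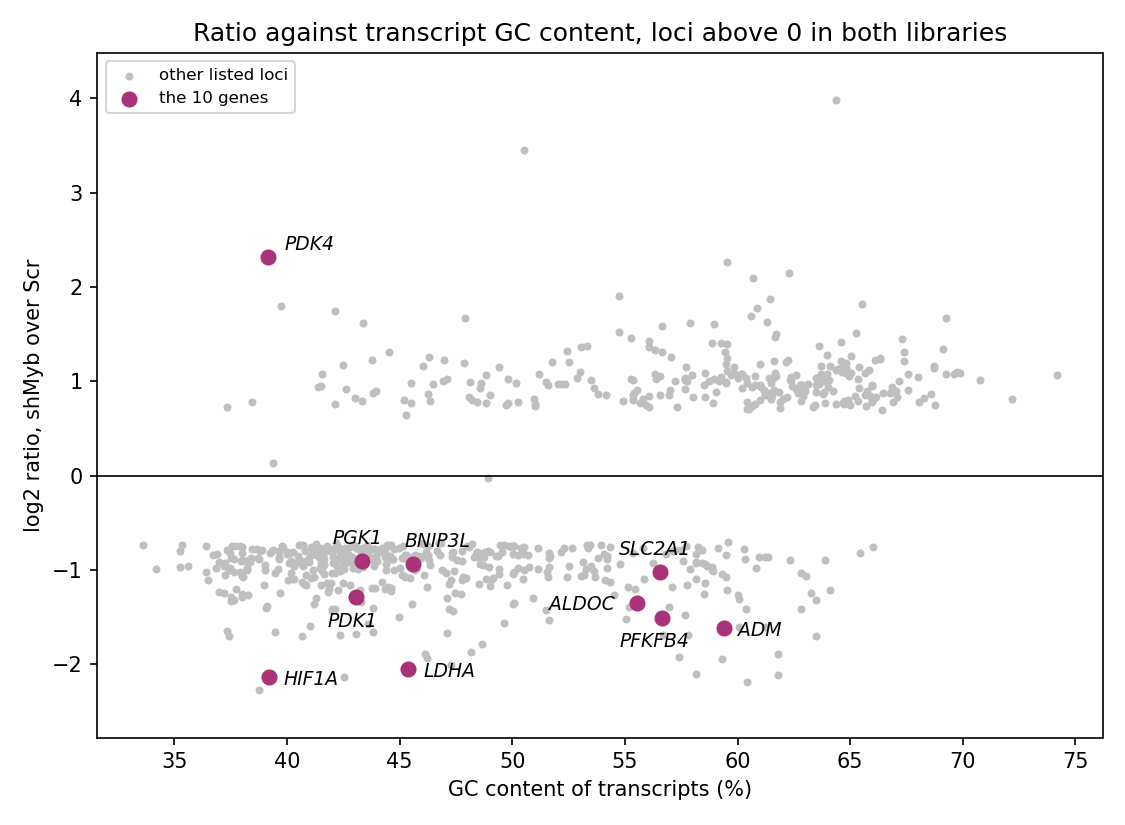
Log2 ratio of shMyb over Scr against the median GC content of a gene's transcripts (%), for the 10 genes (large points) and 740 other listed loci above 0 in both libraries (small points, MYB left out). PDK4 stands apart at 39.2% GC with a log2 ratio of 2.32, and loci between the upper and lower bands are scarce because the table holds only loci that passed the authors' p-value.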

How the data were processed

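The deposited table gives 2 FPKM columns, 1 for each library, made by the authors. Per the submitters' processing notes, TopHat, Bowtie, Cufflinks and CASAVA 1.8.2 were used with hg19, in roles not stated. Parameters, annotation, strand setting and scaling between libraries are likewise not given. The authors also deposited a signed fold score, a log2 ratio without pseudocount and an unadjusted p-value. Total counts are not given, so depth is unknown and limits of detection could not be set.

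Ratios were computed in Python 3.11.15 with pandas 2.3.3 as log2(shMyb + 0.5) minus log2(Scr + 0.5), and the code was tested on simulated data. Counts of 2-fold differences used loci that averaged 1 FPKM or more. The 10 genes, the pathway lists and the rules were chosen with earlier results of these data known. Named genes are the 10, MYB, every listed gene of those lists, HIF1A-AS2, and the 3 loci nearest to HIF1A and to PDK4 in level, of which 1 is not reported here. Printed starts of hg19 loci are raised by 1. Transcript GC content is the median over GENCODE release 29 transcripts, matched for 783 of 836 loci. Sequences are from RefSeq on GRCh38.p14, and no coordinates of the 2 builds were compared. Alternatives covered the pseudocount, centring, the level filter, the deposited p-value, the motif and its window.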

Additional observations from a re-analysis of the deposited data

How the results depend on the processing

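No setting that gave a value changed the sign of any of the 10 log2 ratios. No paired analysis was possible because each group has 1 library, and no library could be left out. Centring on the median of the listed loci, which are selected for change, gave -1.33 for HIF1A, -1.24 for LDHA, -0.71 for PFKFB4, -0.55 for ALDOC, -0.10 for PGK1, -0.49 for PDK1, 3.13 for PDK4, -0.22 for SLC2A1, -0.81 for ADM and -0.13 for BNIP3L. With 0.5 FPKM added, it left 2 members lower by at least 2-fold, and 3.89% of listed loci lower and 37.6% higher by at least 2-fold. The list medians became -0.14 (glycolytic enzymes), 1.32 (kinases), 0.23 (HIF subunits, a change of sign) and -0.13 (hypoxia-inducible genes). A pseudocount of 0.1 FPKM gave 2.93 for PDK4 and 4.27 for its difference from PDK1. A mean of at least 5 FPKM removed PDK4, ADM and EPAS1, so 0 members were higher and the medians became -1.29 (kinases) and -2.13 (HIF subunits). A deposited p-value of 0.01 or less removed PGK1, ADM and BNIP3L, left 57.1% of loci lower and 33.3% higher by at least 2-fold, and gave medians of -2.13 (HIF subunits) and 1.78 (hypoxia-inducible genes, from HMOX1 alone). The changes under the level and p-value filters come from which loci were kept, since no ratio was altered. Less the median of the same GC content bin, added after seeing the data, the ratios were -1.22 for HIF1A, -1.18 for LDHA, -0.037 for PGK1, -0.42 for PDK1, 3.23 for PDK4 and -0.068 for BNIP3L, and the other 4 moved by less than 0.1. Allowing GCGTG beside ACGTG gave 77.8% of the 9 windows, and 48.4% of all windows. It gave 62.7% of the windows of listed genes and 64.8% of those of lower listed genes. A pseudocount of 1 FPKM and no level filter moved no value by over 1.5-fold, but the former put SLC2A1 at -0.997 and so left 6 members lower by at least 2-fold. Values under 1 FPKM are the least certain.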

Other observations

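Among the 3 listed loci closest in level to HIF1A over the 2 libraries, by distance on the log2(FPKM + 0.5) scale, were the zinc transporter gene SLC39A10 (72.1 FPKM in Scr and 27.4 FPKM in shMyb) and the replication factor C subunit RFC3 (78.2 and 30.6 FPKM). Their log2 ratios were -1.38 and -1.34, each smaller in size than that of HIF1A. Closest to PDK4 were the sterol exporter gene ABCG1 (0.892 and 4.71 FPKM), the latent TGF-beta binding protein gene LTBP1 (0.655 and 3.18 FPKM) and the conjugate exporter gene ABCC3 (0.789 and 3.37 FPKM), with log2 ratios of 1.90, 1.67 and 1.58. With 2 libraries, likeness is a match of 2 levels and nothing more.

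Promoter motifs were also counted for 603 listed genes with a window. The core ACGTG lay in 118 of 384 windows of lower genes (30.7%) and in 51 of 219 windows of higher genes (23.3%). A MYB element lay in 115 of the lower (29.9%) and 29 of the higher (13.2%), against 25.9% of all windows. The windows of lower genes had a median GC content of 64.0% and those of higher genes of 69.0%, and the part of base composition in these shares was not tested.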
